A study of Homo sapiens with 12 samples.

Results

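The 10 genes described here encode the fatty acid synthesis and desaturation machinery and its main transcriptional regulator: SREBF1, ACLY, ACSS2, ACACA, ACACB, FASN, SCD, ELOVL6, FADS1 and FADS2. They were taken by symbol from a table of 57773 genes, and all 10 were found once and passed the filter on low counts, as did 22831 genes in all. The genes were measured by RNA sequencing in PANC-1, an established human pancreatic carcinoma line, in 4 groups of 3 libraries after 24 h. The groups received vehicle (DMSO), 30 nM chaetocin, 90 nM MLN8237, or 30 nM chaetocin with 90 nM MLN8237 (the combination). All groups are the same line, below the same passage limit in the labels, and no genotype differs between them. One label of the combination libraries writes MLN3237 for the second compound, and it was read as MLN8237. Chaetocin is a fungal compound known to inhibit the histone H3K9 methyltransferase SUV39H1 and thioredoxin reductase, and MLN8237 (alisertib) inhibits the mitotic kinase Aurora A.

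Fatty acid synthesis starts from cytosolic acetyl-CoA, which ATP-citrate lyase (ACLY) cuts from citrate and acetyl-CoA synthetase 2 (ACSS2) makes from acetate. Acetyl-CoA carboxylase (ACACA in the cytosol, ACACB at the mitochondrial surface) makes malonyl-CoA, and fatty acid synthase (FASN) builds palmitate from it. ELOVL6 elongates palmitate to stearate, SCD places the first double bond in these saturated chains, and FADS2 and FADS1 desaturate dietary polyunsaturated chains at the delta-6 and delta-5 positions. Most of these genes are targets of SREBP-1, the membrane-bound transcription factor encoded by SREBF1, which acts when it is cut and released to the nucleus. The liver X receptors raise SREBF1 transcription. Tumour cells commonly make fatty acids themselves, and the pathway is a known feature of pancreatic carcinoma.

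The results turn on 3 of these genes: SREBF1, whose level changed most, SCD, the most abundant, and ELOVL6, the one called higher. The 250 bases before 1 start of each are shown with the gene's strand read 5′ to 3′, from RefSeq on build GRCh38.p14. The counts are per gene, so they can include transcripts from other starts, which these bases do not precede. The windows are chr17:17836987-17837236 on the minus strand, chr10:100346983-100347232 on the plus strand and chr4:110198616-110198865 on the minus strand. Capitals mark CCAAT and GGGCGG, the letters of the CCAAT box and of the GC box, on either strand.
SREBF1: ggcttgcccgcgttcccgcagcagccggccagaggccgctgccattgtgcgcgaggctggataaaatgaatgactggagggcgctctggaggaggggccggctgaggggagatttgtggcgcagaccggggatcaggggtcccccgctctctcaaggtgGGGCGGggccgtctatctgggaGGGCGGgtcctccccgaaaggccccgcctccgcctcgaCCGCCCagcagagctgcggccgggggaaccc
SCD: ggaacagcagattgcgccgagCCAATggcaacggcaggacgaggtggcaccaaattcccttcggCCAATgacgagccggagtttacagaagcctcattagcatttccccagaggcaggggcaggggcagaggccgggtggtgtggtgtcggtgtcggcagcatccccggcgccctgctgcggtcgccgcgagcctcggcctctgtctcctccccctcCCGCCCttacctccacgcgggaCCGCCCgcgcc
ELOVL6: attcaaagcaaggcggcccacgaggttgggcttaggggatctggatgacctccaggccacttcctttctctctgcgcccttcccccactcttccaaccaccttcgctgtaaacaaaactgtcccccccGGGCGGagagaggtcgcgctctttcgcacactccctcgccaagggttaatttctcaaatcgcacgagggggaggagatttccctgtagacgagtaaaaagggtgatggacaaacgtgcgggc
The SREBF1 window holds 3 GC boxes and no CCAAT box, the SCD window 2 of each, and the ELOVL6 window 1 GC box and no CCAAT box. The sterol regulatory element form TCACNCCAC and the E-box CACGTG, also searched on both strands, are in none of the 3 windows. Among 35116 windows of the same length in the RefSeq table, 32% hold a CCAAT box, 42.6% a GC box, 6.34% the E-box and 0.883% the sterol element form. There were 15 windows for 9 of the 10 genes, since several have more than 1 start, and FASN had 0. Neither the E-box nor the sterol element form is in any of the 15. Other forms of the sterol element were not searched. A match or its absence is a description of these letters only, and no binding was measured.

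Summed gene counts ran from 49439795 to 63747510 per library. The leading principal component, with 59.9% of the variance, separated the 6 libraries with chaetocin from the 6 without it, and MLN8237 replicate 3 stood apart from all others on the next one (14.6%). Nothing in the labels tells if the replicates were grown separately, and the p-values therefore cover the scatter of these libraries alone, perhaps technical scatter only. Of the ductal epithelial markers, KRT8, KRT18 and KRT19 were abundant in every library, and the list summed to 4160 to 4760 CPM (counts scaled to library size, with TMM factors) in vehicle, 2360 to 2530 with chaetocin, 4460 to 5240 with MLN8237 and 1940 to 2270 with the combination. CFTR had 0 to 4 counts per group. Markers of adipocytes and hepatocytes, cells rich in this pathway, were near 0 apart from PPARG, which averaged 69.8 ± 1.93 CPM in vehicle libraries and 65.2 ± 1.85 under chaetocin. ALB had 1 count over the vehicle libraries, 14 with chaetocin, 0 with MLN8237 and 58 with the combination. In that order ADIPOQ had 0, 4, 0 and 2 counts and CIDEC 1, 20, 3 and 52. FABP4 had 2, 14, 0 and 43, and TF 29, 47, 9 and 158. Of 4 adipocyte markers tested, 1 was called higher with chaetocin, and 2 higher and 1 lower with the combination. Of 3 hepatocyte markers tested, 0 were called with chaetocin and 2 were called higher with the combination. Fibroblast markers summed to 64.7 to 80.7 CPM in vehicle, 55.3 to 63.5 with chaetocin, 54.5 to 62.9 with MLN8237 and 33.6 to 49 with the combination. Nearly all of it was COL1A1 (70.6 ± 8.69 CPM in vehicle), while COL1A2, DCN, LUM and PDGFRA had 0 to 8 counts per group. Of the 4 fibroblast markers tested, 2 were called lower with the combination. Immune markers summed to 156 to 182, 167 to 234, 172 to 203 and 169 to 235 CPM in the same order, nearly all of it CD68, and 3 of the 6 tested were called higher with the combination. PTPRC, which defines leukocytes, had 0 counts in vehicle, 68 with chaetocin, 2 with MLN8237 and 122 with the combination. The filter on low counts kept CIDEC, FABP4, ALB and PTPRC only through libraries with chaetocin, where their counts were higher. The numbers of markers tested and called higher depend on this, and they are no separate evidence of a rise. Acinar markers stayed between 0.485 and 1.1 CPM in all libraries. The part of these markers and of MLN8237 replicate 3 in the results was not tested, beyond the values given without that library. In such bulk RNA, fewer cells of a type and less RNA per cell cannot be told apart.

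Per gene length, the pathway spanned a wide range of levels in vehicle. On the authors' RPKM scale (reads scaled to gene length and library size), SCD led with 186, 230 and 143 in vehicle replicates 1 to 3, a mean of 186 ± 43.2 (SD, n = 3), which ranked 194 of 22831 tested genes. FASN followed at 48.1 ± 6.95, ACLY at 31.4 ± 2.55, FADS2 at 22.1 ± 2.7, FADS1 at 18.1 ± 2.48 and SREBF1 at 11.6 ± 1.48. FADS2 and FADS1, neighbours in that order, overlapped between libraries (19.3 to 24.7 and 15.8 to 20.7), while SCD, FASN and ACLY did not overlap each other. ACACA, at 4.43 ± 0.596, stood above its paralog ACACB, at 0.563 ± 0.0242. ACSS2 stood at 3.16 ± 0.229, and ELOVL6 was the lowest at 0.239 ± 0.0255. These mean levels placed ELOVL6 at percentile 18.4 and SCD at percentile 99.2 of tested genes.

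**Figure D1:**
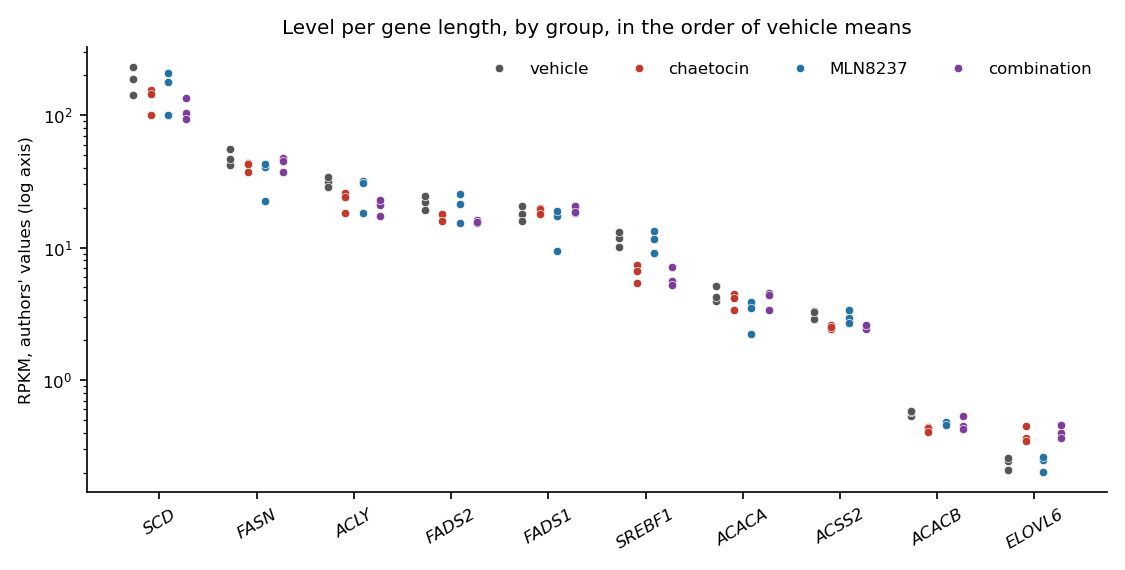
Authors' RPKM values of the 10 genes on a log axis, 1 point per library, in the order of the vehicle means. SCD is highest in all 4 groups. ELOVL6 lies below ACACB in vehicle and with MLN8237, and the 2 genes overlap with chaetocin and with the combination.

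With chaetocin alone, SREBF1 and the acetyl-CoA suppliers ACLY and ACSS2 were lower, ELOVL6 was higher, and FASN and ACACA did not pass. Of the 10 genes 5 fell (SREBF1, ACACB, ACLY, FADS2 and ACSS2), 1 rose (ELOVL6) and 4 did not pass (FASN, ACACA, SCD and FADS1), with a median log2 fold change of -0.41. Over all 22831 tested genes 24.5% were called, 12.6% higher and 11.9% lower, and the median was 0.01. Calls are edgeR quasi-likelihood tests at a Benjamini-Hochberg adjusted p under 0.05 over all tested genes. The count of called members was 3 without vehicle replicate 1 and 2 without vehicle replicate 2. It was also 3 with no filter on low counts, where ACACB, ACLY and ACSS2 lost their calls (edgeR adjusted p = 0.0508, 0.0545 and 0.0514).

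SREBF1 (ENSG00000072310, hg19 chromosome 17, 17713713 to 17740325) stood at 99.4, 110 and 86.4 CPM in vehicle replicates 1 to 3 and at 60.2, 54.2 and 44.7 with chaetocin. Every chaetocin library lay below every vehicle library; 48% of all tested genes had no overlap between these groups. The fall was 0.538-fold of vehicle, or -0.89 ± 0.158 (SE) on the log2 scale, with an edgeR adjusted p of 0.00145. The counts are per gene, so the SREBP-1a and SREBP-1c transcripts were not separated. RAI1 and MIR33B overlap SREBF1 in the table. RAI1 had 2086 to 4360 counts per library over its whole length, and the reads of the stretch shared with SREBF1 were not counted apart. MIR33B, a microRNA gene, had 0 to 4 counts per library.

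The enzymes that supply acetyl-CoA were lower too. ACLY (ENSG00000131473, chromosome 17, 40023161 to 40086795) stood at 171, 186 and 161 CPM in vehicle and at 137, 127 and 98.9 with chaetocin. The groups did not overlap, and the log2 fold change was -0.52 ± 0.173 (edgeR adjusted p = 0.045). That call lay near the threshold. It was lost without vehicle replicate 1, 2 or 3 (edgeR adjusted p = 0.0957, 0.14 and 0.0686), chaetocin replicate 2 or 3 (0.0908 and 0.167), MLN8237 replicate 2 (0.052) or combination replicate 1 (0.0619). ACSS2 (ENSG00000131069, chromosome 20, 33459949 to 33515769) went from 16.4, 18.8 and 18.6 CPM to 13.2, 14.1 and 14, again without overlap (log2 fold change -0.38 ± 0.0962, edgeR adjusted p = 0.0114, and 0.057 without vehicle replicate 2). GGT7 overlaps ACSS2 in the table.

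The carboxylases and the synthase differed in their calls. ACACB (ENSG00000076555, chromosome 12, 109554400 to 109706031), the form tied to control of fatty acid oxidation, went from 7.97, 8.54 and 8.73 CPM to 6.3, 6.14 and 5.91 (log2 fold change -0.46 ± 0.111, edgeR adjusted p = 0.00924). ACACA (ENSG00000132142, chromosome 17, 35441923 to 35766909), the lipogenic form, had 57.1, 73.6 and 62.3 CPM in the vehicle libraries, against 62.1, 57.6 and 47.9 under chaetocin. These groups overlapped (log2 fold change -0.20 ± 0.173, edgeR adjusted p = 0.442). FASN (ENSG00000169710, chromosome 17, 80036214 to 80056208) had 396, 524 and 446 CPM in the vehicle libraries, against 394, 387 and 342 under chaetocin. All chaetocin values lay below the lowest vehicle value, the nearest only just, and the change of -0.28 ± 0.182 did not pass (edgeR adjusted p = 0.295). The interval of the FASN difference, -0.68 to 0.11 on the log2 scale (95%, unadjusted), includes a change as large as that of ACLY.

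Among the chain-modifying enzymes, ELOVL6 was the member that rose. ELOVL6 (ENSG00000170522, chromosome 4, 110967002 to 111120355) had 1.61, 1.88 and 2.02 CPM in the vehicle libraries, against 3.28, 2.67 and 2.62 under chaetocin. The groups did not overlap, and the rise was 1.55-fold (log2 fold change 0.63 ± 0.17, edgeR adjusted p = 0.0161). It rests on 293 counts over the vehicle libraries, and the call was lost without vehicle replicate 1 or 2 (edgeR adjusted p = 0.0739 and 0.0526) or chaetocin replicate 1 (0.0747).

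SCD (ENSG00000099194, chromosome 10, 102106881 to 102124591) had 1050, 1290 and 817 CPM in the vehicle libraries, against 838, 783 and 552 under chaetocin. Chaetocin replicate 1 lay above vehicle replicate 3, and the log2 fold change of -0.54 ± 0.244 did not pass (edgeR adjusted p = 0.13). It passed without MLN8237 replicate 3 (edgeR adjusted p = 0.0445) and in a fit of only the groups compared (0.0441). Inside SCD the table lists AL139819.1 (102121397 to 102123376), with 239 to 606 CPM. With its counts added to those of SCD, a sum chosen after the data were seen, the log2 fold change was -0.52 ± 0.237 with chaetocin (edgeR adjusted p = 0.135) and -0.85 ± 0.238 with the combination (adjusted p = 0.0129).

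The fatty acid desaturases FADS2 and FADS1 lie on opposite strands of 1 cluster and overlap in the table, and FEN1 overlaps FADS2. FADS2 (ENSG00000134824, chromosome 11, 61560452 to 61634826) went from 258, 285 and 226 CPM to 194, 197 and 180. All 3 chaetocin values were below vehicle (log2 fold change -0.43 ± 0.135, edgeR adjusted p = 0.0349). The call was lost without vehicle replicate 1 or 2 (edgeR adjusted p = 0.0861 and 0.145) or chaetocin replicate 1, 2 or 3 (0.0722, 0.0788 and 0.11). FADS1 (ENSG00000149485, chromosome 11, 61567099 to 61596790) had 193, 222 and 172 CPM in the vehicle libraries, against 205, 202 and 188 under chaetocin, all within the vehicle range (log2 fold change 0.02 ± 0.177, edgeR adjusted p = 0.951, interval -0.36 to 0.40). The sources used here do not give the strand setting of the counting, so reads from the shared stretch cannot be assigned to either gene with certainty.

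**Figure D2:**
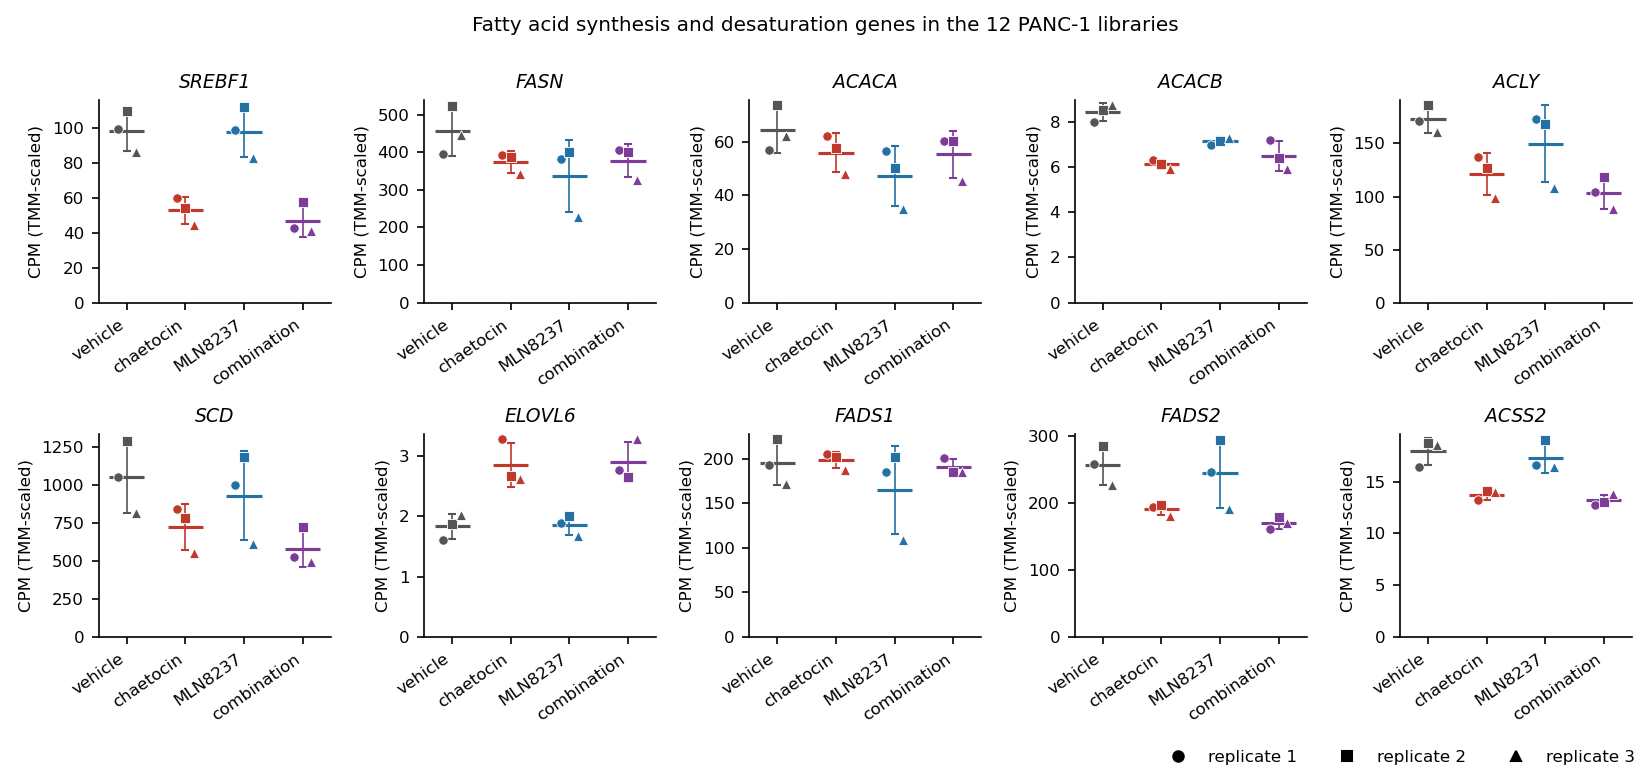
Level of each gene in TMM-scaled CPM, 1 point per library shaped by replicate number, with group means (lines) and SD (bars), each axis from 0. SREBF1, ACLY, ACACB, ACSS2 and FADS2 separate the libraries with chaetocin from vehicle, and ELOVL6 does so upward. MLN8237 replicate 3 is the lowest library for FASN, ACACA and FADS1.

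With both compounds SREBF1 and SCD were lower and ELOVL6 was higher. Against vehicle, 6 of 10 fell (SREBF1, ACACB, ACLY, SCD, FADS2 and ACSS2), 1 rose (ELOVL6) and 3 did not pass (FASN, ACACA and FADS1), with a median log2 fold change of -0.41. Of all tested genes 38.5% were called, 20.1% higher and 18.3% lower, with a median of 0.02. This comparison uses the same vehicle libraries as the one with chaetocin.

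SREBF1 stood at 42.7, 57.7 and 40.8 CPM with the combination, each below the lowest vehicle library, a log2 fold change of -1.07 ± 0.159 (edgeR adjusted p = 0.000233). SCD stood at 525, 722 and 494 CPM, also below all vehicle libraries, a level 0.552-fold that of vehicle (log2 fold change -0.86 ± 0.245, edgeR adjusted p = 0.0141). The SCD call was lost without vehicle replicate 2 (edgeR adjusted p = 0.0636), combination replicate 1 (0.0612) or combination replicate 3 (0.0575). These were the regulator and its most abundant target gene among the 10.

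ACLY stood at 104, 118 and 87.8 CPM (log2 fold change -0.74 ± 0.174, edgeR adjusted p = 0.00457) and ACSS2 at 12.8, 13 and 13.8 CPM (-0.45 ± 0.0963, adjusted p = 0.00283). FADS2 stood at 161, 179 and 169 CPM (-0.59 ± 0.135, edgeR adjusted p = 0.00388), and ELOVL6 at 2.77, 2.66 and 3.28 CPM (0.66 ± 0.17, adjusted p = 0.00819). None of these 4 overlapped with vehicle, as was so for 54.8% of all tested genes. ACACB stood at 7.2, 6.38 and 5.89 CPM (-0.37 ± 0.111, edgeR adjusted p = 0.0173), and its call was lost without vehicle replicate 2 or 3 (0.0522 and 0.0516) or combination replicate 3 (0.071). FASN, at 406, 402 and 326 CPM, ACACA, at 60.3, 60.3 and 45.2, and FADS1, at 201, 185 and 185, overlapped with vehicle. Their log2 fold changes were -0.27 ± 0.182, -0.22 ± 0.173 and -0.04 ± 0.177 (edgeR adjusted p = 0.271, 0.348 and 0.883). FASN passed without MLN8237 replicate 3 (edgeR adjusted p = 0.048). With no filter on low counts SCD and ACACB lost their calls (0.0756 and 0.0705).

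**Figure D3:**
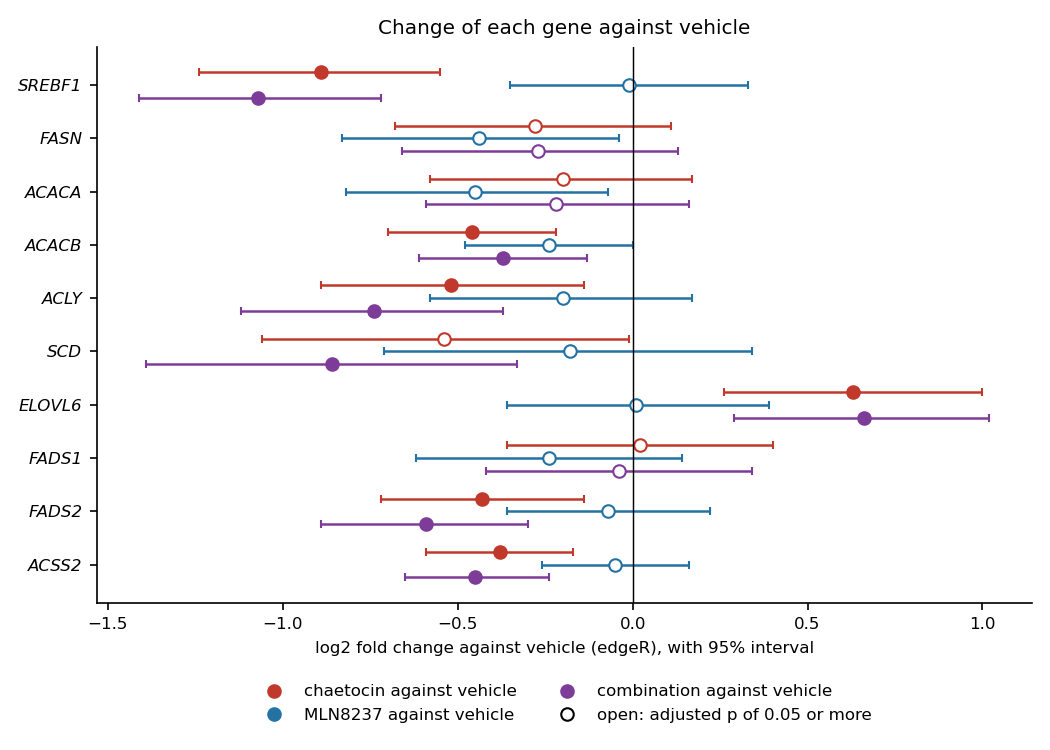
Log2 fold change of each gene against vehicle with its unadjusted 95% interval, for the 3 treatments. Filled points passed the edgeR test, and SREBF1 at -0.89 with chaetocin and -1.07 with the combination lies farthest from 0.

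With MLN8237 alone, none of the 10 genes passed the edgeR test, where 0.00438% of all tested genes were called. At an unadjusted p under 0.05 there were 2, FASN and ACACA, and DESeq2 called 0. FASN stood at 383, 400 and 227 CPM (log2 fold change -0.44 ± 0.182, edgeR adjusted p = 0.516) and ACACA at 56.4, 50.3 and 34.9 CPM (-0.45 ± 0.174, adjusted p = 0.516). In both, replicate 3 was far below the others, and it was also the lowest MLN8237 library for SCD (996, 1180 and 608 CPM), ACLY (173, 168 and 108), FADS1 (185, 202 and 109), FADS2 (246, 294 and 191) and SREBF1 (98.9, 112 and 83.2). Without replicate 3 the SREBF1, SCD and FADS2 values were 0.10, 0.05 and 0.07 in place of -0.01, -0.18 and -0.07. ACACB, by contrast, was even across MLN8237 replicates, at 6.95, 7.17 and 7.29 CPM, all below vehicle (14% of tested genes had no overlap here), with a log2 fold change of -0.24 ± 0.111 that did not pass (edgeR adjusted p = 0.516). ELOVL6 stood at 1.89, 2 and 1.67 CPM and ACSS2 at 16.6, 19 and 16.4, both overlapping vehicle.

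Adding MLN8237 to chaetocin gave no member that passed. Against chaetocin alone, 0 of 10 were called by edgeR, 0 had an unadjusted p under 0.05 and DESeq2 called 0, and edgeR called 0% of all tested genes. SCD had the largest of these differences, -0.32 ± 0.244 (interval -0.85 to 0.21), followed by ACLY at -0.23 ± 0.173 (interval -0.60 to 0.15). The intervals do not show that the levels were alike. FADS2 was the only member without overlap, with all combination libraries below all chaetocin libraries (log2 fold change -0.17 ± 0.135, edgeR adjusted p = 0.667), and 18.7% of tested genes were without overlap in that comparison.

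Adding chaetocin to MLN8237 changed 6 of 10: SREBF1 (-1.06 ± 0.159), SCD (-0.68 ± 0.244), ACLY (-0.54 ± 0.174), FADS2 (-0.52 ± 0.135) and ACSS2 (-0.39 ± 0.0964) fell and ELOVL6 (0.64 ± 0.17) rose, at edgeR adjusted p = 0.000223, 0.0374, 0.0225, 0.00731, 0.00518 and 0.00801. Of all tested genes 45.9% were called. ELOVL6 lay above, and SREBF1, FADS2 and ACSS2 below, without overlap between these groups, as did 51.3% of all tested genes in either direction. The SCD call was lost without MLN8237 replicate 1 or 2 (edgeR adjusted p = 0.0769 and 0.162) or combination replicate 1 or 3 (0.122 and 0.115), and the ACLY call without the same libraries (0.074, 0.0871, 0.0613 and 0.0838). Both were also lost in a fit of only the groups compared (0.0658 and 0.0641), SCD with no filter (0.141), and ELOVL6 without the treated libraries numbered 3 (0.0574). The interaction, how far the log2 change with the combination departs from the 2 single changes added, ran from -0.16 to 0.45 over the 10 genes. By edgeR 0 members passed, 0 had an unadjusted p under 0.05, DESeq2 called 0 members, and 0% of all tested genes were called.

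Ratios of raw counts inside each library describe the genes relative to each other without any scaling between libraries. The 3 ratios were chosen after the values were seen, so they restate the differences above and are no separate evidence. The ratio of FADS1 to FADS2 was 0.749, 0.78 and 0.76 in vehicle, 1.06, 1.02 and 1.04 with chaetocin, and 1.24, 1.03 and 1.09 with the combination. With MLN8237 it was 0.752, 0.69 and 0.569. All 6 libraries with chaetocin lay above all 6 without it. The ratio of FASN to SREBF1 was 4.64 ± 0.598 in vehicle, 7.12 ± 0.561 with chaetocin, 8.15 ± 1.28 with the combination and 3.39 ± 0.589 with MLN8237, where every library lay below every vehicle library. The ratio of FASN to ACLY was 2.63 ± 0.279, 3.13 ± 0.297, 3.68 ± 0.262 and 2.23 ± 0.139 in the same order. The exact two-sided permutation p was 0.1 for each ratio with chaetocin and with the combination against vehicle, the smallest that 3 against 3 libraries allow (adjusted 0.129 over 9 comparisons), so the design cannot place these differences under 0.05.

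**Figure D4:**
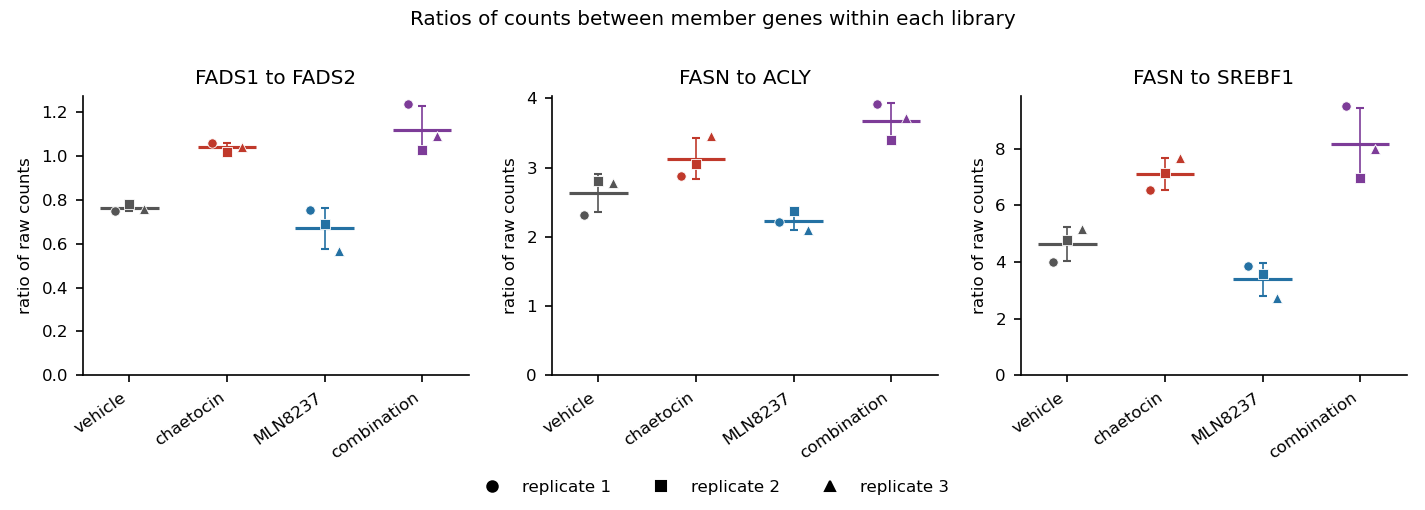
Ratios of raw counts between genes within each library, with group means (lines) and SD (bars), each axis from 0. The FADS1 to FADS2 ratio is 0.569 to 0.78 in the 6 libraries without chaetocin and 1.02 to 1.24 in the 6 with it.

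Lists of related genes are to be read beside all tested genes, of which 24.5% were called with chaetocin (median 0.01) and 38.5% with the combination (median 0.02), and each gene said to rise or fall passed the edgeR test. Of 20 tested genes of SREBP and LXR control, 5 fell and 2 rose with chaetocin (median log2 fold change -0.19), and 11 fell and 2 rose with the combination (median -0.30). SREBF2, the paralog that mainly drives cholesterol genes, fell from 74.6 ± 5.83 to 52.4 ± 4.93 CPM with chaetocin, a smaller log2 fold change (-0.51 ± 0.158, edgeR adjusted p = 0.0317) than that of SREBF1, though the difference between the paralogs was not tested. LPIN1, a phosphatidate phosphatase and SREBP target, fell from 79.9 ± 7.86 to 45 ± 6.15 CPM. RXRB, a partner receptor of LXR, fell from 26.4 ± 1.16 to 18.7 ± 0.628 CPM. NR1H2, which encodes LXR beta, rose from 35.3 ± 2.23 to 52 ± 8.39 CPM, and ABCA1, the cholesterol exporter and LXR target, from 2.01 ± 0.168 to 4.85 ± 0.843 CPM with chaetocin and 6.23 ± 1.5 with the combination. SCAP, which escorts SREBP, and INSIG1, which retains it, averaged 47.3 ± 1.67 and 94 ± 11.9 CPM in vehicle libraries, against 50 ± 0.836 and 83.6 ± 9.65 under chaetocin, without passing (edgeR adjusted p = 0.529 and 0.412).

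The supply of citrate and NADPH divided by enzyme. Of 9 genes 4 rose and 4 fell with chaetocin (median -0.24). ME1, malic enzyme, which makes NADPH of the kind FASN consumes and is a known NRF2 target, rose from 72.7 ± 4.02 to 157 ± 5.26 CPM. IDH1, the cytosolic isocitrate dehydrogenase, fell from 106 ± 5.78 to 71.7 ± 1.87 CPM. With the combination 3 rose and 5 fell (median -0.41), and SLC25A1, the carrier that exports citrate from mitochondria, went from 89.4 ± 7.32 to 53.6 ± 5.34 CPM.

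Of 14 tested relatives of the elongases and desaturases 1 rose and 3 fell with chaetocin (median 0.02), near the 24.5% of all tested genes. With the combination 3 rose and 4 fell (median -0.03), beside 38.5% of all tested genes. ELOVL2, an elongase of long polyunsaturated chains, fell from 141 ± 5.78 to 82.2 ± 6.06 CPM, and SCD5, the paralog of SCD, from 6.17 ± 0.145 to 3.76 ± 0.755. FADS3, beside FADS1 and FADS2 on chromosome 11, rose from 12.7 ± 0.382 to 19.7 ± 3.57 CPM. So the 3 genes of that cluster were called lower (FADS2), called higher (FADS3) and not called (FADS1). ELOVL4, an elongase of very long chains, rose with the combination from 3.26 ± 0.351 to 6.24 ± 1.06 CPM.

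Cholesterol synthesis is the other arm under SREBP. Of 20 tested genes 11 fell and 0 rose with chaetocin (median -0.43), and likewise 11 and 0 with the combination (median -0.54). The difference between this list and the 10 genes was not tested. MVD, the mevalonate diphosphate decarboxylase, fell from 38.4 ± 1.85 to 25.1 ± 1.9 CPM with chaetocin.

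Of 18 genes of glycerolipid synthesis and storage 4 rose and 4 fell with chaetocin (median 0.08), and 4 rose and 3 fell with the combination (median 0.10), where 24.5% and 38.5% of all tested genes were called. MGLL, which cleaves monoacylglycerol, rose from 4.58 ± 0.539 to 15.1 ± 1.4 CPM and to 23.9 ± 7.72 with the combination, PLIN2, which coats lipid droplets, from 21.9 ± 0.658 to 35 ± 2.03, and AGPAT4, an acyltransferase, from 12.9 ± 0.601 to 26.3 ± 3.25. PLIN4, another droplet coat gene, fell from 1.88 ± 0.321 to 0.739 ± 0.143 CPM. Of 14 genes of activation and uptake 2 rose and 3 fell with chaetocin (median 0.04), and 4 rose and 3 fell with the combination (median 0.16). Those lower with chaetocin include the mitochondrial acetyl-CoA synthetase gene ACSS1, the counterpart of ACSS2, which went from 28.5 ± 1.22 to 18.3 ± 0.639 CPM. Of 23 genes of fatty acid oxidation 8 fell and 1 rose with chaetocin (median -0.31), and 14 fell and 1 rose with the combination (median -0.35). HADHA and HADHB, subunits of the trifunctional protein, which overlap each other in the table, fell, HADHA from 226 ± 6.11 to 156 ± 5.44 CPM and HADHB from 111 ± 5.27 to 71.8 ± 1.91, as did CPT1A, the carnitine shuttle enzyme that malonyl-CoA inhibits, from 197 ± 7.93 to 145 ± 16.5. CPT1C, the form known from brain, rose from 0.21 ± 0.0459 to 1.12 ± 0.32 CPM. Of 8 genes of the separate mitochondrial fatty acid synthesis pathway 1 fell with chaetocin (HSD17B8), and 1 fell and 1 rose with the combination. With MLN8237 alone no gene of any of these lists was called by edgeR.

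**Figure D5:**
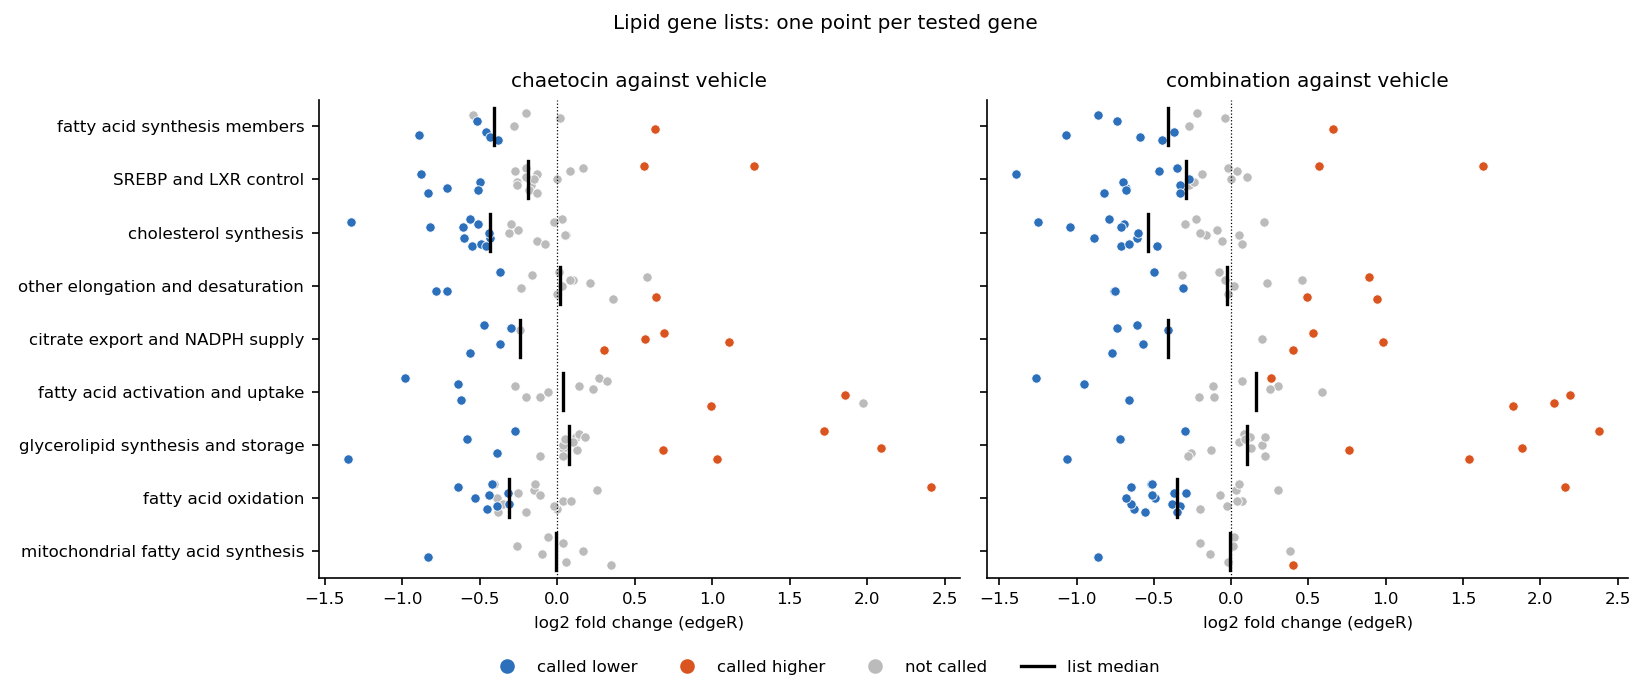
Log2 fold change of every tested gene of the 9 lipid lists with chaetocin (left) and the combination (right), coloured by call, with list medians as bars. The medians of the 10 genes (-0.41) and of cholesterol synthesis (-0.43 and -0.54) lie left of 0, while glycerolipid synthesis lies at 0.08 and 0.10. Fatty acid oxidation (-0.31 and -0.35), citrate and NADPH supply (-0.24 and -0.41) and SREBP and LXR control (-0.19 and -0.30) also lie left of 0.

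The genes whose level across the 12 libraries was most like that of SREBF1 were PTK7, RECK, JUP, FBLN1 and SCP2, with Pearson correlations of log2 CPM of 0.99 to 0.991 among 12593 genes of at least 5 CPM on average. PTK7 averaged 108 CPM in vehicle and 48.4 with chaetocin, and SCP2, which encodes a sterol carrier protein, 146 and 82.8. For SCD the list was AL139819.1, which lies inside it, STARD4, DHCR7, GLIS2 and ACLY (0.984 to 0.962). STARD4, a sterol transporter gene, averaged 32.4 CPM in vehicle and 24.9 with chaetocin, and DHCR7, of cholesterol synthesis, 173 and 118. ACLY was the only other of the 10 genes among these. The libraries form 2 sets, with and without chaetocin, and the correlations are given as a description, with no p.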

How the data were processed

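RNA from PANC-1 cells was sequenced in 12 libraries. The submitters' processing notes name CASAVA 1.9, TopHat 12.0.6, HTSeq and hg19 without roles. The authors deposited raw counts and RPKM values for each Ensembl gene in every library, per the file headers. Their gene length column, of which 33.7% of values are multiples of 3, is not coding length alone. Coordinates are the table's, read as hg19.

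Counts were tested with edgeR 4.0.16 in R 4.3.3: default filter by group, TMM scaling, 1 fit of 4 group means over 12 libraries, robust quasi-likelihood F tests and Benjamini-Hochberg adjustment over all 22831 genes tested. SE is the log2 fold change divided by the root of F. CPM is given as mean ± SD (n = 3), and deposited RPKM served only to compare levels between genes. Replicates differed beyond counting noise in all 12 pairs (5.35 to 114 for the chi-square statistic per gene). The fit was also run on simulated counts with planted changes, drawn independently for each library. That run cannot tell how the fit handles scatter shared between libraries. Correlations used log2 CPM with a prior count of 2.

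The 10 genes and all lists were chosen with earlier results of these data known. Named beyond the 10 were the called genes of each list that had the lowest p, up to 4 per comparison, the genes most like SREBF1 and SCD, genes overlapping a member, and SCAP, INSIG1, SLC25A1, ELOVL4, CPT1A, STARD4 and the markers, some of them chosen after their values were seen. Promoter letters came from RefSeq. Alternatives were RLE factors, no filter, DESeq2 1.42.0, a block for the replicate number, a fit of the compared groups alone, each library left out, and the 3 treated libraries numbered 3 left out. A sum of SCD and AL139819.1 counts was added after the data were seen. Some members of the lists are counted but not reported here by name.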

Additional observations from a re-analysis of the deposited data

How the results depend on the processing

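All called members kept their direction under every alternative run. RLE factors and DESeq2 changed no call of a member. With no filter, the members called with chaetocin numbered 3 in place of 6, where more genes were tested. Leaving out 1 library at a time gave 2 to 7 called members for chaetocin, 5 to 8 for the combination against vehicle, 4 to 6 for the combination against MLN8237, and 0 for the other 3 comparisons. SREBF1 was called in all 18 alternatives of each of its 3 called comparisons. No called value changed sign. Values that did not pass and changed sign follow, and the cause was not tested. With no filter FASN against chaetocin was -0.01 with the combination. Without the treated libraries numbered 3, SREBF1, SCD and FADS2 were 0.10, 0.05 and 0.08 with MLN8237, and ACACA and ELOVL6 were 0.01 and -0.13 for the combination against chaetocin. With 1 library left out, values with MLN8237 ran from -0.07 to 0.08 for ELOVL6, -0.12 to 0.10 for SREBF1, -0.23 to 0.07 for FADS2 and -0.39 to 0.05 for SCD. FADS1 ran from -0.07 to 0.12 with chaetocin and -0.14 to 0.05 with the combination. The combination against chaetocin gave -0.12 to 0.11 for ACACA, -0.07 to 0.13 for ELOVL6 and -0.05 to 0.11 for FASN, and against MLN8237 -0.06 to 0.31 for FASN and -0.04 to 0.37 for FADS1. Adding the counts of AL139819.1 to SCD changed none of its calls.

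The labels give no meaning to the replicate numbers, and they were not used as pairs. Correlations of same-numbered deviations ran from -0.153 to 0.462, with 9 of 18 above 0.1. In no comparison tested were all 3 above 0.1, although they were between chaetocin and MLN8237 (0.314, 0.119 and 0.441), and the treated libraries numbered 3 gave 0.436 to 0.462. The members' median deviation from the group mean was negative in replicate 3 and positive in replicate 2 of all 4 groups. With the number as a block, 7 members were called with chaetocin, 7 with the combination, 6 for the combination against MLN8237 and 0 elsewhere; the call gained was SCD with chaetocin (edgeR adjusted p = 0.00541). The number of all genes called for the combination against chaetocin was 0 by edgeR, 299 by DESeq2, 36 with no filter, 7 without MLN8237 replicate 3 and 573 without combination replicate 2, and for the interaction 15 by DESeq2 and 2 with no filter. For MLN8237 it was 1, and 0 in a fit of only the groups compared or without vehicle replicate 2 or 3. For chaetocin it was 5591, and 3704 without vehicle replicate 2. Depth limits ELOVL6 most, at 293 counts over the vehicle libraries.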
